A study of Homo sapiens with 6 samples.

Results

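The genes described here are 10 genes of the microRNA pathway: DROSHA, DGCR8, XPO5, DICER1, TARBP2, AGO1, AGO2, AGO3, AGO4 and TNRC6A. They were listed for their known roles and found by symbol among the 57905 gene identifiers counted in each library. The list was drawn up with earlier results of these data known, and DICER1 was among the transcripts that the study picked from these libraries. All 10 were counted in every library. Of 24945 genes with a count, 14398 had enough counts to be tested with edgeR, and all 10 were among them. NCI-H929 (H929) is a human multiple myeloma cell line, which grows from malignant plasma cells. Its total RNA was exposed in a test tube to recombinant IRE1, the endoplasmic reticulum stress sensor whose cytoplasmic part is an endoribonuclease, after which poly(A)-containing RNA was purified and sequenced to find mRNAs that IRE1 cuts. An mRNA that is cut keeps its 3′ piece in the poly(A) fraction and loses its 5′ piece, and a count per gene adds up the reads over both.

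Each reaction held 5 µg of RNA and lasted 1 h at 37 °C. The 3 IRE1-treated samples received 2 µg of recombinant human ERN1/IRE1a (amino acids 467 to 977), the 3 controls received no enzyme, and all reactions were stopped at 95 °C for 5 min. The RNA came from 1 cell line and was treated after purification, not in living cells. Every sample had a separate lane on the sequencer, and effects of lane and of library cannot be told apart. The series describes the 6 RNA samples as biological replicates, and the p-values below measure only the spread between these samples. The counts on genes were 25678499, 22433916 and 21144515 in control replicates 1 to 3 and 19615715, 21525644 and 23041598 in IRE1 replicates 1 to 3. Levels are given as normalized counts, which are counts divided by the library's size and its TMM factor (edgeR's trimmed mean scaling) and set to the scale of the mean library. The libraries of a group differed by more than counting noise, with a chi-square per gene of 2.2 to 3.05 between controls and of 3.4 to 11.1 between IRE1-treated samples. IRE1 replicate 1 stood furthest from the others of its group (7.13 and 11.1), so results that rest on it are also given without it.

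The libraries carried the markers of plasma cells. All 9 plasma cell markers were detected, from 514 normalized counts for CD38 to 87928 for JCHAIN (means of the 6 libraries). Markers of other cell types were low apart from single genes. Of the B-cell markers, FCER2 had 290, 311 and 296 normalized counts in the controls and 433, 359 and 348 in the IRE1-treated samples, and MS4A1 was at 0 in all controls. The T-cell list (CD3D, CD3E, CD3G, CD2) summed to 901, 940 and 916 in the controls and 1178, 950 and 977 in the IRE1-treated samples, nearly all of it CD3E (mean 974), with CD3D at 0 in all controls. FCER2 and the T-cell sum were higher in every IRE1-treated sample than in every control. The log2 fold changes were 0.34 for FCER2 and 0.16 for CD3E. They were 0.23 and 0.035 with the trend of counts with transcript length and GC content removed. The part of these genes in the results was not tested. The myeloid list peaked at 24.1 (CSF1R) and the stromal list at 8.82 (COL1A1). Whether a low level came from fewer cells with a transcript or from less of it per cell cannot be told from bulk RNA.

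MicroRNAs are cut from hairpins in nuclear transcripts by DROSHA with its RNA-binding partner DGCR8, carried to the cytoplasm by exportin-5 (XPO5), and cut again by DICER1 with its partner TARBP2. A strand of the resulting duplex is held by an Argonaute protein (AGO1 to AGO4), which pairs with target mRNAs, and GW182 proteins such as TNRC6A link Argonaute to the enzymes that remove the poly(A) tail and the cap. IRE1 cuts the mRNA of XBP1, a plasma cell transcription factor, at a CUGCAG-like motif in the loop of a hairpin, and IRE1-dependent decay of other mRNAs is known as RIDD.

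The motif CUGCAG was searched on the sense strand of the canonical transcript of each gene (GENCODE 44 on GRCh37). DICER1 had 15 matches, AGO1 and AGO2 had 9 each, DGCR8, TARBP2 and AGO4 had 6 each, AGO3 had 5, XPO5 had 4, and DROSHA and TNRC6A had 3 each. The motif is common: 85.3% of the canonical transcripts of 12225 tested protein-coding genes hold at least 1 match, and 98.7% of those of 8 kb or more. Each match was folded with 12 bases on either side, and it was called a hairpin match where base 3 of the motif was unpaired within a loop of 5 to 11 bases, with a stem of 3 or more stacked pairs. By this rule AGO2 had 6 hairpin matches, DROSHA, TARBP2, AGO1 and AGO4 had 2 each, DICER1, XPO5 and TNRC6A had 1 each, and DGCR8 and AGO3 had 0. Among all tested protein-coding genes 40.4% had a hairpin match (68.6% of those of 8 kb or more). The rule covers base 3 only, and other bases of the motif may be paired in the stem. A match describes the letters of the transcript and does not show that IRE1 cut there.

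The match of DICER1 that lies between the study's primers for the predicted loop, and the hairpin match of lowest folding energy in 7 of the genes, are shown to compare the motif's surroundings, with CUGCAG in capitals and all lines 5′ to 3′ on the transcript. The matches of AGO2, which has the most in hairpins, are not shown here.
DICER1 between the loop primers: guagugccagucCUGCAGuaguugauaagc
DICER1 5′ UTR: cggcgccccgugCUGCAGuaagcugugcua
DROSHA 3′ UTR: ucuaagugggccCUGCAGuaaaaggcuaac
XPO5 coding: ugaauucuuguuCUGCAGuuggaacuggag
TARBP2 coding: ccgaucagccuuCUGCAGgaguaugggacc
AGO1 5′ UTR: cagugggagcugCUGCAGgcuccgcggcgg
AGO4 3′ UTR: cguccuuaauccCUGCAGauagugggauga
TNRC6A 3′ UTR: ccucgcuucuccCUGCAGgagcucgggggc

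The DICER1 match between the primers lies in the 3′ UTR, in exon 27 of 27 (chr14:95556378-95556407 of GRCh37, minus strand), 3831 bases from the transcript's 3′ end. It was not in a hairpin loop by the rule above, which folds only the motif and its near flanks. The study folded mRNA sequences with another program, Mfold, and reported the DICER1 consensus within a stem-loop. Its qRT-PCR with primers on both sides of that consensus found significantly less DICER1 mRNA after IRE1. The rule was not compared with the study's folding, so its result does not bear on the study's site. The primers that flank this match are placed on the transcript as follows.
DICER1 forward primer beside the loop: cctccagcagtccctaggat
DICER1 reverse primer beside the loop: ccgggaacatcaccttacac
The forward primer matched bases 6488 to 6507 of the transcript and the reverse primer the complement of bases 6640 to 6659, both in the 3′ UTR (chr14:95556442-95556461 and chr14:95556290-95556309), and the 172 bases they span hold 1 CUGCAG. The other primer pair for DICER1 spans 219 bases of exons 9 and 10 in the coding part, with 0 matches. The hairpin match of DICER1 lies in exon 1 in the 5′ UTR, with the motif at chr14:95623567-95623572 and its 3′ flank in exon 2. It lies 10090 bases from the 3′ end. The TNRC6A hairpin match lies in the 3′ UTR in the last of 25 exons (chr16:24837190-24837219, plus strand), 338 bases from the 3′ end, with a folding energy of -11.1 kcal/mol. All 3 matches of TNRC6A are in its 3′ UTR, within 2340 bases of the 3′ end. The motif of the AGO1 match begins at base 36 of the transcript in exon 1 (bases shown at chr1:36348833-36348862, plus strand), with -10.4 kcal/mol. The DROSHA match is in exon 36 of 36 (chr5:31400697-31400726, minus strand), the TARBP2 match in exon 2 (chr12:53895836-53895865, plus strand) and the AGO4 match in exon 18 of 18 (chr1:36321148-36321177, plus strand). The XPO5 motif is in exon 14 (chr6:43521229-43521234, minus strand), with a flank in the next exon.

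**Figure D1:**
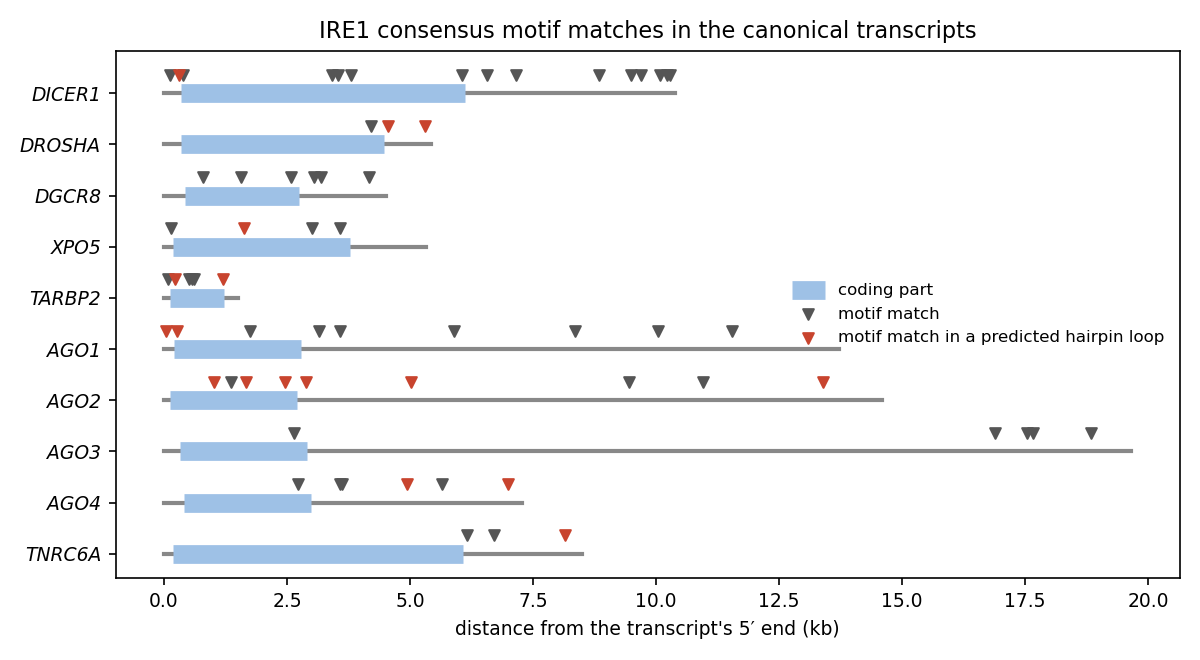
Matches of the IRE1 consensus motif along the canonical transcript of each gene, with the distance from the 5′ end in kb on the x axis, the coding part as a thick bar, matches as triangles and matches with base 3 in a predicted hairpin loop in red. The 3 matches of TNRC6A all lie beyond its coding part, and DICER1 has the most matches (15).

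The wider consensus of IRE1, read as C, then A, C or U, then GC, then A or C, then A or G, was matched far more often. TNRC6A had 79 such matches (9.3 per kb), against 4.9 per kb over all tested protein-coding genes and 4.35 per kb over those of 8 kb or more. Its CUGCAG matches went the other way, at 0.353 per kb against 0.806 and 0.705 over the same genes. TARBP2 had 13.9 per kb and was the shortest transcript of the 10 (1510 bases), while AGO3 had 2.49 per kb and was the longest (19660 bases). Of all tested protein-coding genes 99.7% hold the wider motif.

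Between IRE1-treated and control RNA, 4 of the 10 microRNA genes were lower after IRE1 and 0 were higher. TNRC6A, DICER1, AGO2 and AGO1 had an adjusted p under 0.05 (edgeR quasi-likelihood test, Benjamini-Hochberg adjustment over all tested genes), of which TNRC6A alone was still called, and AGO1 turned positive, with the trend of counts with transcript length and GC content removed. Over all 14398 genes 12.4% were called lower, 10.3% higher and 22.7% in either direction. The 0 higher genes were also 0 at an unadjusted p under 0.05, and 0 with DESeq2 and with limma. The log2 fold change was negative in 9 of the 10 genes, against 49.2% of all genes, and its median was -0.19, against 0.0045 over all genes. In 7 of the 10 genes every IRE1-treated sample was below every control, against 20% of all genes, and in 0 of the 10 was every IRE1-treated sample above every control, against 19.1%. Once the length and GC trend was taken out, 1 of the 10 genes (TNRC6A) was called lower, against 4.05% of all genes, and 0 were called higher, against 6.97% (1 at an unadjusted p under 0.05 in edgeR). Then 6 of the 10 log2 fold changes were positive, as were 7984 of all 14398, and the median was 0.022, against 0.02 over all genes. With library size as the only scaling, 6 of the 10 were called lower, against 18% of all genes, and 0 higher, against 4.75%. The count of genes called over the whole table also rested on single libraries, with 3270 in all 6 libraries, 1681 without control replicate 1, 1630 without control replicate 2 and 1982 without IRE1 replicate 2. The count among the 10 genes was 3 without any of these. Without IRE1 replicate 1, it was 4 and the median of the 10 was -0.13.

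**Figure D2:**
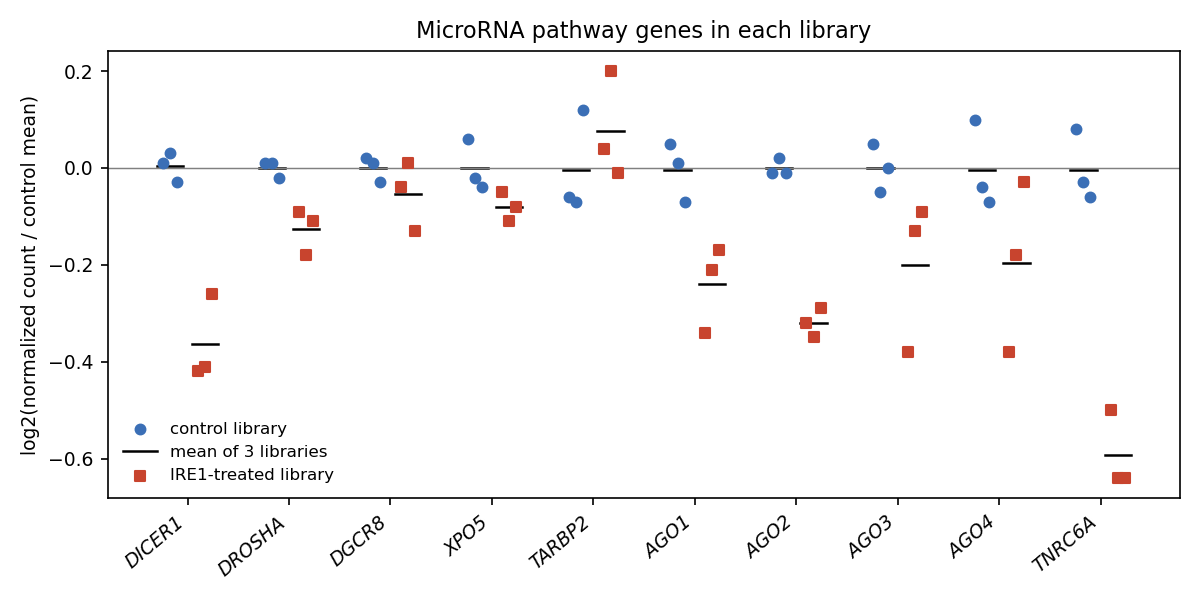
Level of each gene in each library as log2 of the normalized count over the mean of the 3 controls, with circles for controls, squares for IRE1-treated samples and a line at the mean of 3 libraries. TNRC6A lies at -0.5 to -0.64 in the IRE1-treated samples, and TARBP2, DGCR8 and AGO4 overlap between the groups.

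The nuclear cutting step differed little. DROSHA, the enzyme that cuts primary microRNA transcripts, had 1791, 1791 and 1751 normalized counts in control replicates 1 to 3 and 1671, 1569 and 1644 in IRE1 replicates 1 to 3. All IRE1-treated samples were below all controls, at 91.6% of the control mean (1778 ± 22.8 against 1628 ± 52.9, SD, n = 3). The log2 fold change was -0.13 (SE 0.0499), which did not pass the threshold (edgeR adjusted p = 0.0775). It passed without IRE1 replicate 1 (log2 fold change -0.14), and with library size as the only scaling (-0.20), with adjusted p-values of edgeR, DESeq2 or limma from 0.00966 to 0.846 over all 15 alternatives. DGCR8, which binds the hairpin for DROSHA, had 449, 447 and 434 in the controls and 431, 446 and 404 in the IRE1-treated samples. The groups overlapped, and the log2 fold change was -0.05 (SE 0.0757, edgeR adjusted p = 0.659), between -0.088 and -0.009 with any 1 library left out. XPO5, the exporter of hairpin precursors, had 2433, 2297 and 2268 in the controls and 2258, 2166 and 2203 in the IRE1-treated samples. The groups did not overlap, although control replicate 3 and IRE1 replicate 1 lay close together, and the log2 fold change of -0.08 (SE 0.0495) did not pass the threshold (edgeR adjusted p = 0.275). With library size as the only scaling it was -0.16 and passed, and with any 1 library left out it was between -0.099 and -0.047 and did not. DROSHA, DGCR8 and XPO5 had positive log2 fold changes of 0.022, 0.022 and 0.054 once the length and GC trend was removed, none of them called.

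DICER1, the enzyme that cuts the exported hairpin into a mature duplex, had 762, 772 and 742 normalized counts in control replicates 1 to 3 and 569, 571 and 634 in IRE1 replicates 1 to 3. Every IRE1-treated sample was below every control, and IRE1 replicate 3 was the highest of its group. The mean fell from 759 ± 15.4 to 591 ± 37.1 (SD, n = 3), or 77.9% of control. The log2 fold change was -0.36 (SE 0.0672, adjusted p = 0.00174 in edgeR's quasi-likelihood test). With any 1 library left out it was between -0.41 and -0.33. DICER1 was no longer called once the trend was taken out, with a log2 fold change of -0.056 and an edgeR adjusted p of 0.597, in a range of 3.2e-05 to 0.664 over the 15 alternatives. DICER1 was among the transcripts that the study picked from these libraries, so its direction here is not independent evidence. TARBP2, the RNA-binding partner of DICER1, had 364, 362 and 414 in the controls and 392, 437 and 378 in the IRE1-treated samples. The groups overlapped, with a mean of 106% of control and a log2 fold change of 0.08 (SE 0.088, edgeR adjusted p = 0.544), between 0.02 and 0.15 with any 1 library left out. TARBP2 was the only gene of the 10 with a positive log2 fold change under TMM scaling, and it was -0.029 with the length and GC trend removed.

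The 4 Argonaute genes all had negative log2 fold changes under TMM scaling, and AGO1, AGO3 and AGO4 turned positive with the length and GC trend removed. AGO2, the Argonaute that can itself cut target RNA, had 553, 564 and 553 normalized counts in the controls and 447, 436 and 454 in the IRE1-treated samples. The groups were far apart relative to their spread, at 556 ± 6.53 against 445 ± 9.1 (SD, n = 3), or 80% of control. The log2 fold change of AGO2 was -0.32 (SE 0.0693, edgeR adjusted p = 0.00405), between -0.33 and -0.31 with any 1 library left out and -0.0025, not called, with the trend removed. AGO1 had 693, 674 and 639 in the controls and 527, 578 and 592 in the IRE1-treated samples. The groups did not overlap, and IRE1 replicate 1 was the lowest. The mean of AGO1 was 84.6% of control and its log2 fold change -0.24 (SE 0.0703, edgeR adjusted p = 0.0225). This call was lost without control replicate 1 (log2 fold change -0.21), control replicate 2 (-0.23), IRE1 replicate 1 (-0.19) or IRE1 replicate 2 (-0.25), with edgeR adjusted p-values of 0.0521 to 0.113, in a range of 0.0093 to 0.563 over the 15 alternatives. It was 0.073 with the trend removed.

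AGO3 had 343, 320 and 333 normalized counts in the controls and 255, 303 and 312 in the IRE1-treated samples. The groups did not overlap, IRE1 replicate 1 lay well below its 2 fellows, and the log2 fold change of -0.19 (SE 0.0945) did not pass the threshold (edgeR adjusted p = 0.164). Without IRE1 replicate 1 it was -0.11, and with the length and GC trend removed it was 0.19. AGO4 had 251, 228 and 223 in the controls and 180, 207 and 230 in the IRE1-treated samples. IRE1 replicate 3 was higher than 2 of the 3 controls, and the log2 fold change was -0.19 (SE 0.11, edgeR adjusted p = 0.246), or -0.10 without IRE1 replicate 1. AGO4, AGO1 and AGO3 lie side by side on the plus strand of chromosome 1 (chr1:36273617-36323491, chr1:36335409-36396133 and chr1:36396319-36538101), and AGO2 lies on chromosome 8.

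Summed over the 4 Argonaute genes, the controls had 1841, 1785 and 1747 normalized counts and the IRE1-treated samples 1408, 1523 and 1588. Every IRE1-treated sum was below every control sum, at 84.1% of the control mean. The make-up of the Argonaute counts differed little in all 6 libraries and rested on single libraries. AGO1 made up 37.6, 37.7 and 36.6% of the Argonaute counts in the controls and 37.4, 38.0 and 37.3% in the IRE1-treated samples. AGO2 made up 30.0, 31.6 and 31.6% in the controls and 31.7, 28.6 and 28.6% in the IRE1-treated samples. These shares overlapped between the groups, with AGO2 in IRE1 replicate 1 at the level of the controls. The mean share of AGO2 was 31.1% in the controls and 29.6% in the IRE1-treated samples, a difference of -1.5 points (two-sided exact permutation p = 0.4). The differences were 0.24 points for AGO1 (p = 0.8, exact), 0.68 for AGO3 (p = 0.3, exact) and 0.53 for AGO4 (p = 0.7, exact), and all 4 were 0.8 after Benjamini-Hochberg adjustment over the 4 exact tests. With 20 arrangements of 3 against 3 samples the smallest p that the permutation test can give is 0.1, so no share could pass the threshold. Without IRE1 replicate 1 the difference was -2.5 points for AGO2, whose shares then did not overlap, 1.2 for AGO3 and 0.96 for AGO4. With any 1 library left out it ranged from -2.5 to -0.92 for AGO2, from 0.35 (without IRE1 replicate 2) to 1.2 for AGO3 and from 0.099 (without IRE1 replicate 3) to 0.96 for AGO4. With counts per kilobase of transcript the differences were 0.11 points for AGO1, -1.4 for AGO2, 0.41 for AGO3 and 0.88 for AGO4. The AGO1 difference was -0.13 points without control replicate 3 and 0.043 without IRE1 replicate 2.

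TNRC6A, the GW182 protein that ties Argonaute to the deadenylases, had the lowest log2 fold change of the 10 genes. It had 880, 816 and 799 normalized counts in the controls and 589, 533 and 533 in the IRE1-treated samples. The groups were far apart, with IRE1 replicate 1 the highest of the IRE1-treated samples. The mean fell from 832 ± 42.7 to 552 ± 32.5 (SD, n = 3), or 66.3% of control, and the log2 fold change was -0.60 (SE 0.0693, adjusted p = 7.25e-05 in edgeR's quasi-likelihood test). With any 1 library left out it was between -0.64 and -0.55, and -0.64 without IRE1 replicate 1. With the length and GC trend removed it was -0.35 and TNRC6A was still called (edgeR adjusted p = 0.00377), which was also the highest adjusted p among its 15 alternatives (lowest 2.08e-13). Its paralogs were also called lower. TNRC6C had a log2 fold change of -0.76 (SE 0.103, edgeR adjusted p = 0.000211) and -0.51 with the trend removed. TNRC6B had -0.25 (SE 0.0713, edgeR adjusted p = 0.0182), but 0.099 and no call with the trend removed, and its call was also lost without control replicate 1 or 2 or IRE1 replicate 2 (log2 fold change -0.27 to -0.17). The difference between the paralogs was not tested.

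**Figure D3:**
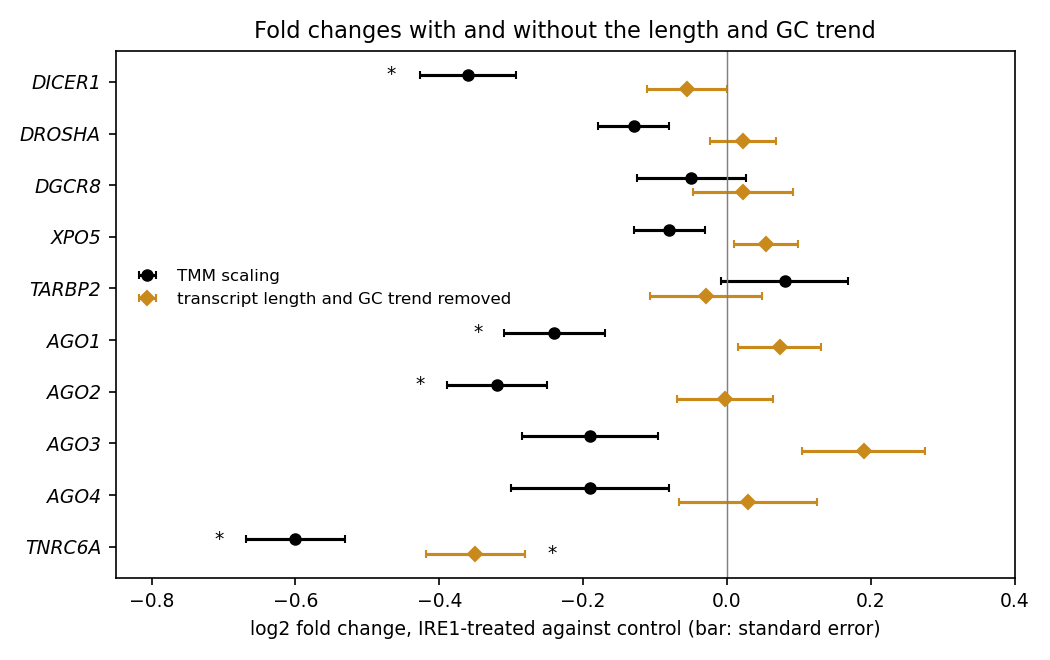
Log2 fold change of each gene, IRE1-treated against control, with its standard error as a bar, under TMM scaling (circles) and with the trend of transcript length and GC content removed (diamonds), where an asterisk marks an adjusted p under 0.05. Of the 4 genes called under TMM scaling, TNRC6A alone was called with the trend removed, at -0.35, and AGO1, AGO3, AGO4, DROSHA, DGCR8 and XPO5 turned positive.

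Counts after IRE1 moved with transcript length across the whole table. Among tested protein-coding genes, 0.243% of the 2879 with a canonical transcript under 2 kb were called lower, 3.76% of the 4436 from 2 to 4 kb, 27% of the 3810 from 4 to 8 kb and 46.1% of the 1100 of 8 kb or more. The median log2 fold changes of these classes were 0.17, 0.021, -0.14 and -0.27. DICER1, AGO1, AGO2, AGO3 and TNRC6A belong to the longest class, in which 4 of these 5 genes were called lower under TMM scaling, and TNRC6A alone with the trend removed. DROSHA, DGCR8, XPO5 and AGO4 belong to the class from 4 to 8 kb, and were not called, with DROSHA alone at an unadjusted p under 0.05 in edgeR. TARBP2 is under 2 kb. Within its own class, DICER1 had 35.1% of genes below it in log2 fold change, AGO2 42.4%, AGO1 55.4% and AGO3 64.8%, so that these genes lay in the middle of transcripts of like length. TNRC6A had 10.4% of its class below it. TARBP2 had 24.8% of the short transcripts below it, although its own log2 fold change was positive. Which property of long transcripts goes with lower counts was not tested.

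**Figure D4:**
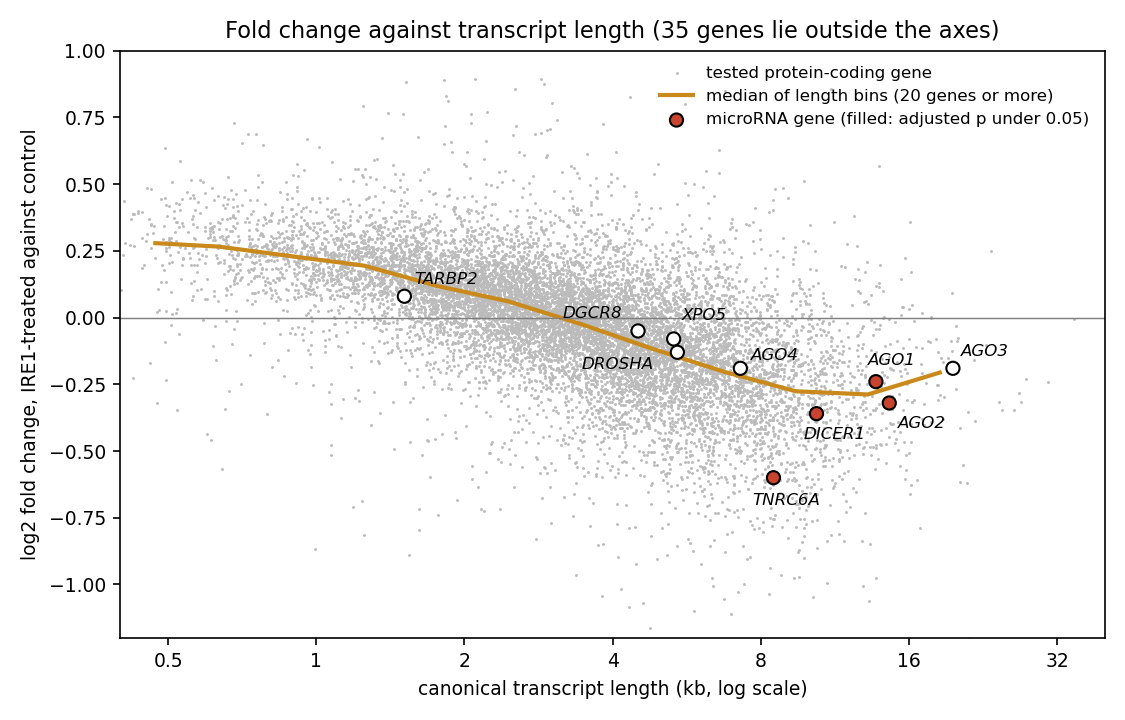
Log2 fold change, IRE1-treated against control, of each tested protein-coding gene (grey points) against the length of its canonical transcript in kb on a log axis, with the median of length bins as a line and the 10 microRNA genes as large points, filled where called. DICER1, AGO1 and AGO2 lie close to the line, and TNRC6A lies below it at -0.60.

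Per kilobase of canonical transcript, the order of the control levels was XPO5 (438 normalized counts per kb), DROSHA (328), TARBP2 (252), DGCR8 (98.3), TNRC6A (98), DICER1 (73.0), AGO1 (48.8), AGO2 (38.1), AGO4 (32.2) and AGO3 (16.9). DGCR8 and TNRC6A were the only neighbours in this order whose controls overlapped (96.2 to 99.6 and 94.1 to 104 per kb). After IRE1, TNRC6A had 65.0 per kb, between DGCR8 (94.8) and DICER1 (56.9). The lengths are those of GENCODE 44, while the authors counted on an older annotation, and the 3′ UTR makes up 10925 of the 13712 bases of AGO1, 11888 of the 14595 of AGO2 and 16755 of the 19660 of AGO3. The levels of the Argonautes per kb, and their place in this order, depend on whether those UTRs were counted. The same lengths were used for the length classes and for the removal of the length and GC trend. The classes and the trend-removed values of AGO1, AGO2 and AGO3 therefore rest on them too.

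Likeness was measured by the root mean square difference over the 6 libraries of log2 levels, each relative to the gene's own control mean. By this measure the genes most like DICER1 among 10292 with at least 100 normalized counts were GPR63 (0.015), MBNL3 (0.0169) and MEF2A (0.0173), against a median of 0.278. GPR63, an orphan G protein-coupled receptor, had 749, 759 and 739 normalized counts in the controls and 563, 550 and 626 in the IRE1-treated samples. MBNL3, an RNA-binding splicing regulator, had 484, 477 and 470 in the controls and 358, 365 and 394 in the IRE1-treated samples. In both genes IRE1 replicate 3 was the highest of its group, as in DICER1, which follows from how they were picked. Of the other microRNA genes, AGO2 came nearest to DICER1 (rank 109, difference 0.05), followed by AGO1 (rank 725, difference 0.0969), and TARBP2 was the furthest (rank 6935, difference 0.34).

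The known IRE1 substrates are given beside these genes. A count over the whole gene keeps the reads 3′ of a cut, so its fall does not measure how much of a transcript was cut. BLOC1S1, a subunit of a lysosome-trafficking complex, had 606, 582 and 649 normalized counts in the controls and 275, 230 and 211 in the IRE1-treated samples. Every IRE1-treated sample was below every control, at 39% of the control mean, with a log2 fold change of -1.37 (SE 0.095, edgeR adjusted p = 1.25e-06). XBP1 had 60995, 58415 and 59795 in the controls and 57255, 56745 and 54060 in the IRE1-treated samples. The groups did not overlap, and its log2 fold change of -0.09 (SE 0.0436) did not pass the threshold over the whole gene (edgeR adjusted p = 0.143). It passed without IRE1 replicate 1 (-0.11), and at -0.19 with the length and GC trend removed, at -0.17 with library size as the only scaling, in a range of adjusted p from 0.00143 to 0.385 over the 15 alternatives of edgeR, DESeq2 and limma. Under TMM scaling the log2 fold changes of TNRC6A, DICER1 and AGO2 lay between those of XBP1 and BLOC1S1, and with the trend removed DICER1 (-0.056) and AGO2 (-0.0025) were nearer to 0 than XBP1. In its exon reads the study found XBP1 clearly lower 5′ of its cleavage sites and similar 3′ of them. The whole-gene values do not rank these transcripts by how much of each was cut.

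The partners of the nuclear step split in both directions. Of 17 genes that bind or assist DROSHA or its substrates, 4 were called lower (23.5%, against 12.4% of all genes) and 3 higher (17.6%, against 10.3%), with a median log2 fold change of 0.061 against 0.0045 over all genes. The lower ones included SMAD5 (-0.46) and SMAD1 (-0.25), signal-dependent factors that bind primary microRNAs, and DDX17 (-0.35), an RNA helicase of the DROSHA complex. The higher ones were HNRNPA1 (0.23), ILF2 (0.19) and ERH (0.18), a small protein that binds DGCR8. DDX17 and HNRNPA1 were called under all 15 alternatives. With the trend removed 1 was lower (DDX17), against 4.05% of all genes, and 3 were higher, against 6.97%. Of these 3, HNRNPA1 alone was also higher under TMM scaling, while SMAD5 (-0.21), SMAD1 (-0.23), ILF2 (0.11) and ERH (0.028) were no longer called. The calls of SMAD1 and ERH were each lost without control replicate 1, 2 or 3 or IRE1 replicate 2, and that of ILF2 without control replicate 2 (log2 fold change 0.18). Without these libraries SMAD1 was between -0.28 and -0.18 and ERH between 0.16 and 0.20. The count of lower genes was 2 without any 1 of the controls or without IRE1 replicate 2. Over all genes, 972, 992 and 1360 were lower without control replicates 1, 2 and 3 and 1089 without IRE1 replicate 2, in place of 1781. The count of higher genes was 1 without control replicate 2 and 6 without IRE1 replicate 3, where 638 and 2091 of all genes were higher, in place of 1489.

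Of 12 genes of export and cytoplasmic processing, 10 were tested, of which 4 were called lower (40%, against 12.4% of all genes) and 1 higher (10%, against 10.3%), with a median of -0.094. The lower ones were TUT4 (-0.35) and TUT7 (-0.22), which add uridines to precursor hairpins, ADAR (-0.30), which edits adenosines in double-stranded RNA, and TENT2 (-0.21), a poly(A) polymerase. RAN, the GTPase that drives XPO5 export, was higher at 0.25. LIN28A and LIN28B, which block the maturation of let-7, had 0 counts in all libraries. With the trend removed TUT4 (-0.16) and ADAR (-0.12) were still called lower, against 4.05% of all genes, and RAN (0.23) higher, against 6.97%. TUT7 (-0.036) and TENT2 (-0.039) were then near 0 and not called. The calls of TUT7 and TENT2 were lost without control replicate 1 or 2 or IRE1 replicate 2, and that of TENT2 also without control replicate 3. Their log2 fold changes without these libraries were -0.21 to -0.16 for TUT7 and -0.22 to -0.19 for TENT2. The count of lower genes was 2 without control replicate 1, control replicate 2 or IRE1 replicate 2, where 972, 992 and 1089 of all genes were lower, in place of 1781.

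Of 17 genes of Argonaute loading, 16 were tested, of which 3 were called lower and 3 higher (18.8% each, against 12.4 and 10.3% of all genes), with a median of 0.060. The lower ones were IPO8 (-0.38), an importin that binds Argonautes, FMR1 (-0.28), the fragile X RNA-binding protein, and LIMD1 (-0.19), a scaffold of Argonaute complexes. The higher ones, HSPA8 (0.17), HSPA4 (0.16) and STIP1 (0.13), belong to the chaperone machinery that opens Argonaute for its duplex. With library size as the only scaling 0 of the genes were called higher, against 4.75% of all genes. With the trend removed 0 were called lower, against 4.05%, with 2 at an unadjusted p under 0.05 in edgeR. IPO8 (-0.22) and FMR1 (-0.15) were then still negative, LIMD1 was at 0.098, and HSPA8 (0.12) and STIP1 (0.063) were no longer called. The 3 genes then called higher, against 6.97% of all genes, were HSPA4 (0.30) and, chosen after their values were seen, FXR1 (0.32) and HSP90AA1 (0.16). The calls of HSPA8, HSPA4 and STIP1 were lost without control replicate 1, 2 or 3, that of STIP1 also without IRE1 replicate 2, that of FMR1 without control replicate 1 or IRE1 replicate 2, that of LIMD1 without control replicate 1 or 2 and that of IPO8 without control replicate 2 (-0.33). Without these libraries HSPA8 was 0.15 to 0.19, HSPA4 0.15 to 0.18, STIP1 0.12 to 0.15, FMR1 -0.27 to -0.22 and LIMD1 -0.19 to -0.16. The count of higher genes was 0 without any 1 of the controls and 5 without IRE1 replicate 3, and the count of lower genes was 1 without control replicate 1 or 2. Over all genes, 709, 638 and 947 were higher without control replicates 1, 2 and 3 and 2091 without IRE1 replicate 3, in place of 1489. Without control replicates 1 and 2, 972 and 992 of all genes were lower, in place of 1781. TRIM71, a ubiquitin ligase of stem cells, had too few counts for the test.

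Among silencing effectors more genes were called lower than higher. Of 26 partners of GW182 proteins, 25 were tested, of which 7 were called lower (28%, against 12.4% of all genes) and 0 higher (against 10.3%), with a median of -0.16. With edgeR 1 gene was higher at an unadjusted p under 0.05, and DESeq2 and limma called 0 higher. Beside TNRC6C and TNRC6B, the lower genes were XRN1 (-0.66), the exonuclease that degrades uncapped mRNA, DDX6 (-0.41), a helicase that activates decapping, EDC4 (-0.26), a decapping scaffold, and, outside the naming rule and chosen after their values were seen, PATL1 (-0.23) and CNOT1 (-0.22, but 0.032 with the trend removed). XRN1 was also among the transcripts that the study picked from these libraries, which makes its direction no independent evidence. TNRC6C, XRN1, DDX6 and EDC4 were called under all 15 alternatives, with smaller log2 fold changes once the trend was removed (-0.51, -0.35, -0.21 and -0.18). With the trend removed PATL1 (-0.15) was no longer called. Then 5 genes were lower, against 4.05% of all genes, among them PABPC4 (-0.12), and 1 was higher, against 6.97% (CNOT7 at 0.31). PABPC4 and CNOT7 were chosen after their values were seen, and the median of the list was -0.0076. The count of lower genes was 12 with library size as the only scaling, against 18% of all genes. It was also 12 without IRE1 replicate 3, where 2221 of all genes were lower, in place of 1781. The symbol DCP1A matched no gene identifier in the annotation used.

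**Figure D5:**
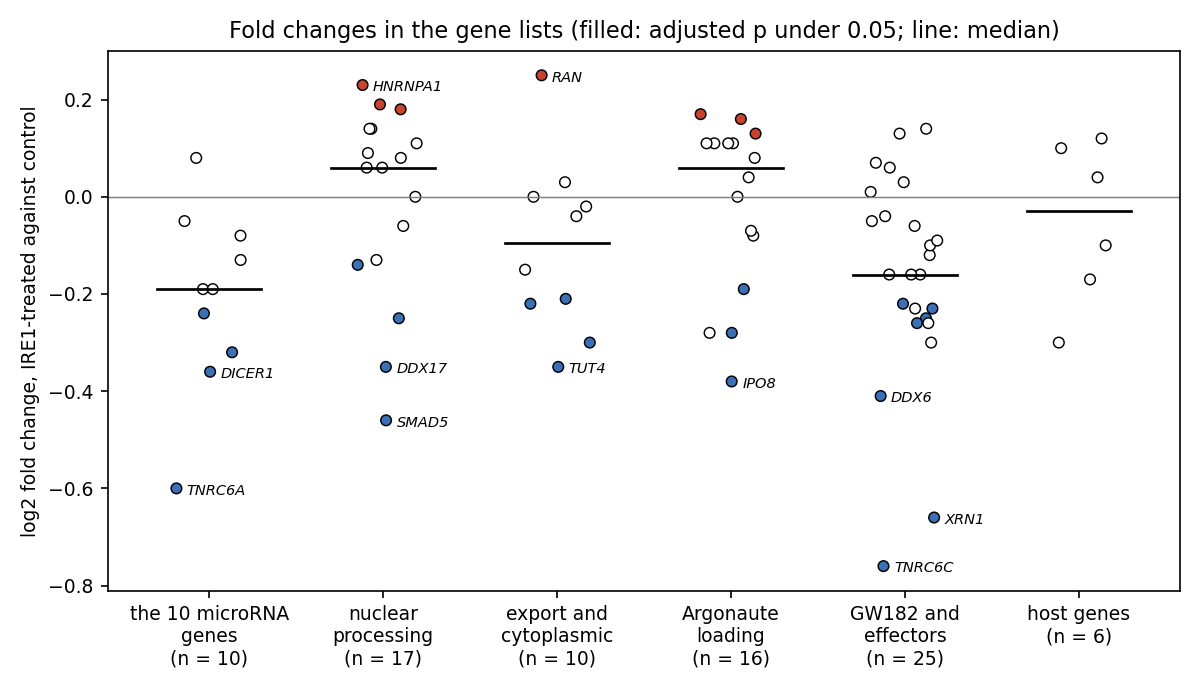
Log2 fold change, IRE1-treated against control, of the 10 microRNA genes and of the tested genes of each list, with points filled where the adjusted p was under 0.05 (blue lower, red higher) and a line at the median. The medians are -0.19 for the 10 genes, 0.061, -0.094, 0.060 and -0.16 for the partner lists and -0.031 for host genes, and with the length and GC trend removed those of the 10 genes (0.022) and of the host genes (0.0079) turned positive.

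Transcripts that give rise to microRNAs were covered unevenly in this poly(A) RNA. Of 12 host genes of microRNAs 6 were tested, with a median of -0.031 (0.0079 with the trend removed), of which 0 were called in either direction by edgeR or DESeq2, against 22.7% of all genes, with 1 lower and 1 higher at an unadjusted p under 0.05. Limma called 1 lower, SMC4 (log2 fold change -0.17 in edgeR and 0.0071 with the trend removed, chosen after its values were seen), and edgeR likewise called 1 lower with library size as the only scaling, with no filter, and without IRE1 replicate 1 or 3. MCM7, a replication helicase subunit that hosts a microRNA cluster, had a control mean of 6630 normalized counts, whereas MIR17HG, the host of the miR-17 cluster, had 6.29 and MIR155HG 4.78, both under the filter. Of 5 precursor genes named in the field as IRE1 substrates, MIR34A, MIR96, MIR125B1 and MIR125B2 had 0 counts in all libraries and MIR17 matched no identifier. None of the 4 PIWI genes, the germline Argonautes, was tested, and the highest control mean among them was 10.1 (PIWIL2).

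Some of these counts may hold reads of other genes. DICER1-AS1 overlaps DICER1 exons on the opposite strand, POLR1C those of XPO5, and TRMT2A those of DGCR8. Genes without a name overlap exons of AGO1, AGO3, TARBP2 and DGCR8 on the opposite strand and of AGO2 on the same strand. MIR1306 and MIR3618 lie in DGCR8 exons on the same strand. The kit marks strand, but the strand setting of the counting is not given in the sources used here, so reads of these neighbours cannot be told apart from those of the microRNA genes. DICER1, AGO1 and AGO2 were read as whole genes, and exon counts were not used here.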

How the data were processed

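In all, 6 libraries of NCI-H929 RNA were analysed, 3 with and 3 without recombinant IRE1. Reads had been trimmed by the authors (cutadapt 1.12), mapped to GRCh37 (hg19, Ensembl release 87) with STAR 2.5.3a, and counted per gene with HTSeq 0.6.1p1, and the deposited raw counts were used. The 5 summary lines of HTSeq, which are not genes, held 21.4 to 23.2% of each library and were left out. A deposited CPM table of the authors (12558 genes, edgeR 3.24.3) was used only in an alternative. Depth on genes ranged from 19615715 to 25678499 counts, and the fits include counting error.

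The counts were tested with edgeR 4.0.16 (R 4.3.3), with filterByExpr, TMM scaling, 1 quasi-likelihood fit of both groups without covariates, and Benjamini-Hochberg adjustment at a threshold of 0.05. Argonaute shares were compared by an exact permutation test. The scripts were tested on simulated data. The alternatives were DESeq2 1.42.0, library size only, upper quartile, no filter, at least 10 counts in every library, limma 3.58.1 on log2 of the CPM plus a pseudocount of 1, a replicate block, removal of the trend of counts with GC content and transcript length (loess, span 0.5), both of these together, each library left out, and, for shares, counts per kilobase.

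The members and lists were chosen with earlier results of these data known. The genes named are the 10 microRNA genes, up to 5 lowest and 5 highest called genes of each list, genes without counts, BLOC1S1 and XBP1, and the 3 genes most like DICER1, but 1 called gene of the nuclear list and 1 B-cell marker are not reported here. The lists hold nuclear processing partners, export and cytoplasmic partners, Argonaute loading factors, GW182 partners and silencing effectors, PIWI genes, microRNA host genes, microRNA precursors and cell type markers. Names, positions and sequences came from GENCODE 44 on GRCh37, which named 55538 of 57905 identifiers. Motif matches were folded with ViennaRNA 2.7.2 (Python 3.11.15), and primer sequences came from the study's supplement. The exon test, qRT-PCR and cell experiments of the study were not analysed here.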

Additional observations from a re-analysis of the deposited data

How the results depend on the processing

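The limits are those of 3 libraries a group. DGCR8, AGO3, AGO4 and TARBP2 had 150 to 532 counts per library. Their log2 fold changes of -0.19 to 0.08, with standard errors of 0.0757 to 0.11, did not reach the threshold. TNRC6A was called under all 15 alternatives, and DICER1 and AGO2 under all but the 2 with the length and GC trend removed, where their log2 fold changes were within about 1 standard error of 0.

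With the length and GC trend removed, 1587 genes were called (583 lower, 1004 higher) in place of 3270 (1781 lower, 1489 higher), and 1 of the 10 microRNA genes in place of 4. The lists then had 1 lower for nuclear partners, 2 for export and cytoplasmic partners, 0 for Argonaute loading, and 1 higher for silencing effectors. The log2 fold changes turned sign for DROSHA (0.022), DGCR8 (0.022), XPO5 (0.054), TARBP2 (-0.029), AGO1 (0.073), AGO3 (0.19), AGO4 (0.029), LIMD1 (0.098), TNRC6B (0.099), CNOT1 (0.032), SMC4 (0.0071) and the medians of the 10 genes (0.022) and of the host genes (0.0079). The cause was not tested.

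With library size only, the split was 2594 lower and 684 higher. Argonaute loading then had 0 higher, silencing effectors 12 lower and host genes 1 lower. Host genes also had 1 lower without a filter and with limma on the authors' CPM. The cause was not tested.

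With the replicate number as a block, 2613 genes were called in place of 3270, AGO1 had an edgeR adjusted p of 0.0501 (0.0093 to 0.563 over its alternatives), nuclear partners had 2 lower and Argonaute loading 1 higher. Libraries with the same number did not deviate together (correlations -0.0358, -0.00505 and -0.112), none over 0.1, and no library correlated best with its own number. These correlations cannot show whether samples with the same number shared an RNA preparation. The block with the trend removed gave 1363 called (487 lower, 876 higher), 1 of the 10 genes, 1 lower for nuclear partners, 0 for export and cytoplasmic partners, 0 for Argonaute loading and 4 for silencing effectors, with 1 higher. Under this block the log2 fold changes that turned sign were DROSHA 0.023, DGCR8 0.024, XPO5 0.056, TARBP2 -0.032, AGO1 0.073, AGO3 0.19, AGO4 0.027, LIMD1 0.098, TNRC6B 0.11 and the median 0.023.

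With 1 library left out, 1630 to 4312 genes were called, 972 to 2221 lower and 638 to 2091 higher. Nuclear partners had 2 to 5 lower and 1 to 6 higher, export and cytoplasmic partners 2 to 4 lower, Argonaute loading 1 to 3 lower and 0 to 5 higher, silencing effectors 5 to 12 lower and host genes 0 to 1 lower. The AGO1 share difference ranged from -0.13 to 0.45 points.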
